A study of Homo sapiens with 23 samples.

Results

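The 10 genes described here are CXCL8, CXCL1, CXCL2, CXCL3, CXCL5, CCL2, CCL20, NFKBIA, TNFAIP3 and ICAM1, all of them well-known targets of the transcription factor NF-kB. They were chosen by their symbol among the 60564 genes listed in each table, and each symbol matched 1 listed gene. The data are mRNA-seq of 2 established human lines, 11 libraries of Caco-2 cells (colorectal adenocarcinoma, used as the gut) and 12 of HepG2 cells (hepatocellular carcinoma, used as the liver), grown in the iGLC microfluidic platform, which joins a gut and a liver chamber in a closed loop of medium. Each line was mono-cultured or co-cultured with the other, and received either FFAs (palmitic and oleic acid, 1 mM in total, for 1 day) or no FFAs (control). The co-cultured control Caco-2 group had 2 libraries, and the remaining 7 groups had 3 each. The labels and the methods name no genetic change and no added cytokine in any group. Each line is a tumor line without immune, endothelial or stellate cells, which limits both groups as models of gut and liver.

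Levels are in TPM, a unit that allows for transcript length and has the same sum in every library. TPM keep no read counts, so the depth of each library is unknown, and 0 TPM is written as listed at 0. Libraries had 19259 to 23689 genes above 0 TPM. The lines matched their labels, since CDX2, an intestinal transcription factor, lay at 60.4 to 136 TPM in Caco-2 cells and at most 0.73 TPM in HepG2 cells, and ALB, the albumin gene, lay at 20460 to 33859 TPM in HepG2 cells and 321 to 769 TPM in Caco-2 cells. The study's methods speak of independent experiments and biological replicates but do not tie libraries to them, and neither do the labels, so the p-values measure the spread between these libraries, part of which may be technical.

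NF-kB dimers such as RELA with NFKB1 are held in the cytoplasm by inhibitors, of which IkBα, the product of NFKBIA, is the best known. Inflammatory signals such as TNF or IL-1 activate the IkB kinase, IkBα is degraded, and the dimers enter the nucleus and switch on chemokines that attract leukocytes, the adhesion molecule ICAM1, and the feedback inhibitors NFKBIA and TNFAIP3. In the gut and the liver these genes are read as a sign of epithelial inflammation, and CXCL8 and CCL2 are often measured in fatty liver disease.

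Of the 10 genes, 7 encode chemokines. CXCL8, CXCL1, CXCL2, CXCL3 and CXCL5 lie in a cluster on chromosome 4 (GRCh38, GENCODE v44), from chr4:73740519-73743716 for CXCL8 to chr4:74097040-74099196 for CXCL2, with CXCL1 at chr4:73869393-73871308, CXCL5 at chr4:73995642-73998677 and CXCL3 at chr4:74036589-74038807. The others are CCL2 (chr17:34255274-34257208), CCL20 (chr2:227805739-227817564), NFKBIA (chr14:35401079-35404749), TNFAIP3 (chr6:137867214-137883314) and ICAM1 (chr19:10271093-10286615). All 10 are protein-coding.

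The promoter table of RefSeq (GRCh38.p14, 250 bases before to 50 after each start) held 9 of the 10 genes. It was searched on both strands for the NF-kB consensus, a degenerate motif of 10 bases, and for the motif GGAANTTCC, which reads the same on both strands and overlaps the consensus in several promoters. The consensus was found in 7 of the 9 promoters and in 5.91% of the 35116 promoters of this length. GGAANTTCC was also found in 7 of the 9, and in 0.965% of all promoters. Each of the 9 held at least 1 of the 2 motifs, against 6.62% of all promoters, and 4 of the 9 held TATAAA, against 11.5%. A match describes the letters and is not evidence of binding here. Neither motif was found in all 9 promoters. CXCL8 and ICAM1 held GGAANTTCC without the consensus, and CCL20 and TNFAIP3 held the consensus without GGAANTTCC. The stretches around the matches run 5′ to 3′ on the strand of the gene, with the matched bases in capitals, and all lie before the RefSeq start. That start can lie inside the GENCODE span given above, as for CCL20 and CXCL3, whose whole stretches are within it.
CXCL8 (chr4:73740458-73740506, plus strand): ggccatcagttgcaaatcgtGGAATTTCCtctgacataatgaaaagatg
CXCL1 (chr4:73869294-73869344, plus strand): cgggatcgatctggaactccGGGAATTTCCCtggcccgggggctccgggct
CXCL2 (chr4:74099243-74099293, minus strand): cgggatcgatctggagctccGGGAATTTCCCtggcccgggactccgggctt
CXCL3 (chr4:74038738-74038788, minus strand): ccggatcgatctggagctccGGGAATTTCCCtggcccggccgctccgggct
CXCL5 (chr4:73998738-73998788, minus strand): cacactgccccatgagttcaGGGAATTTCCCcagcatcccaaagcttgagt
CCL20 (chr2:227813743-227813792, plus strand): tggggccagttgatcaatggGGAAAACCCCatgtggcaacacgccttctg
NFKBIA (chr14:35404801-35404850, minus strand): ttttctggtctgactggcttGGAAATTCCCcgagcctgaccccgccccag
TNFAIP3 (chr6:137867172-137867233, plus strand): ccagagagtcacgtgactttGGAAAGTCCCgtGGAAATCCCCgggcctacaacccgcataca
ICAM1 (chr19:10270914-10270962, plus strand): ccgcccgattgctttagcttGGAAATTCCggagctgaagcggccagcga
CXCL1, CXCL2, CXCL3 and CXCL5 carried the same 11 bases, with the first base of the match 79, 78, 79 and 91 bases before the start. TNFAIP3 held 2 matches to the consensus, and ICAM1 held its match farthest from the start, 186 bases before it.

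NFKBIA, ICAM1 and TNFAIP3 had the highest mean TPM among the 10 genes in Caco-2 cells, whereas for HepG2 CCL20, NFKBIA and ICAM1 stood at 137 TPM or more in every library. CXCL1, CXCL3 and CXCL5 were close to 0 in HepG2 cells, and CXCL5 was close to 0 in both lines. The plot of TPM by library gives each value.

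**Figure D1:**
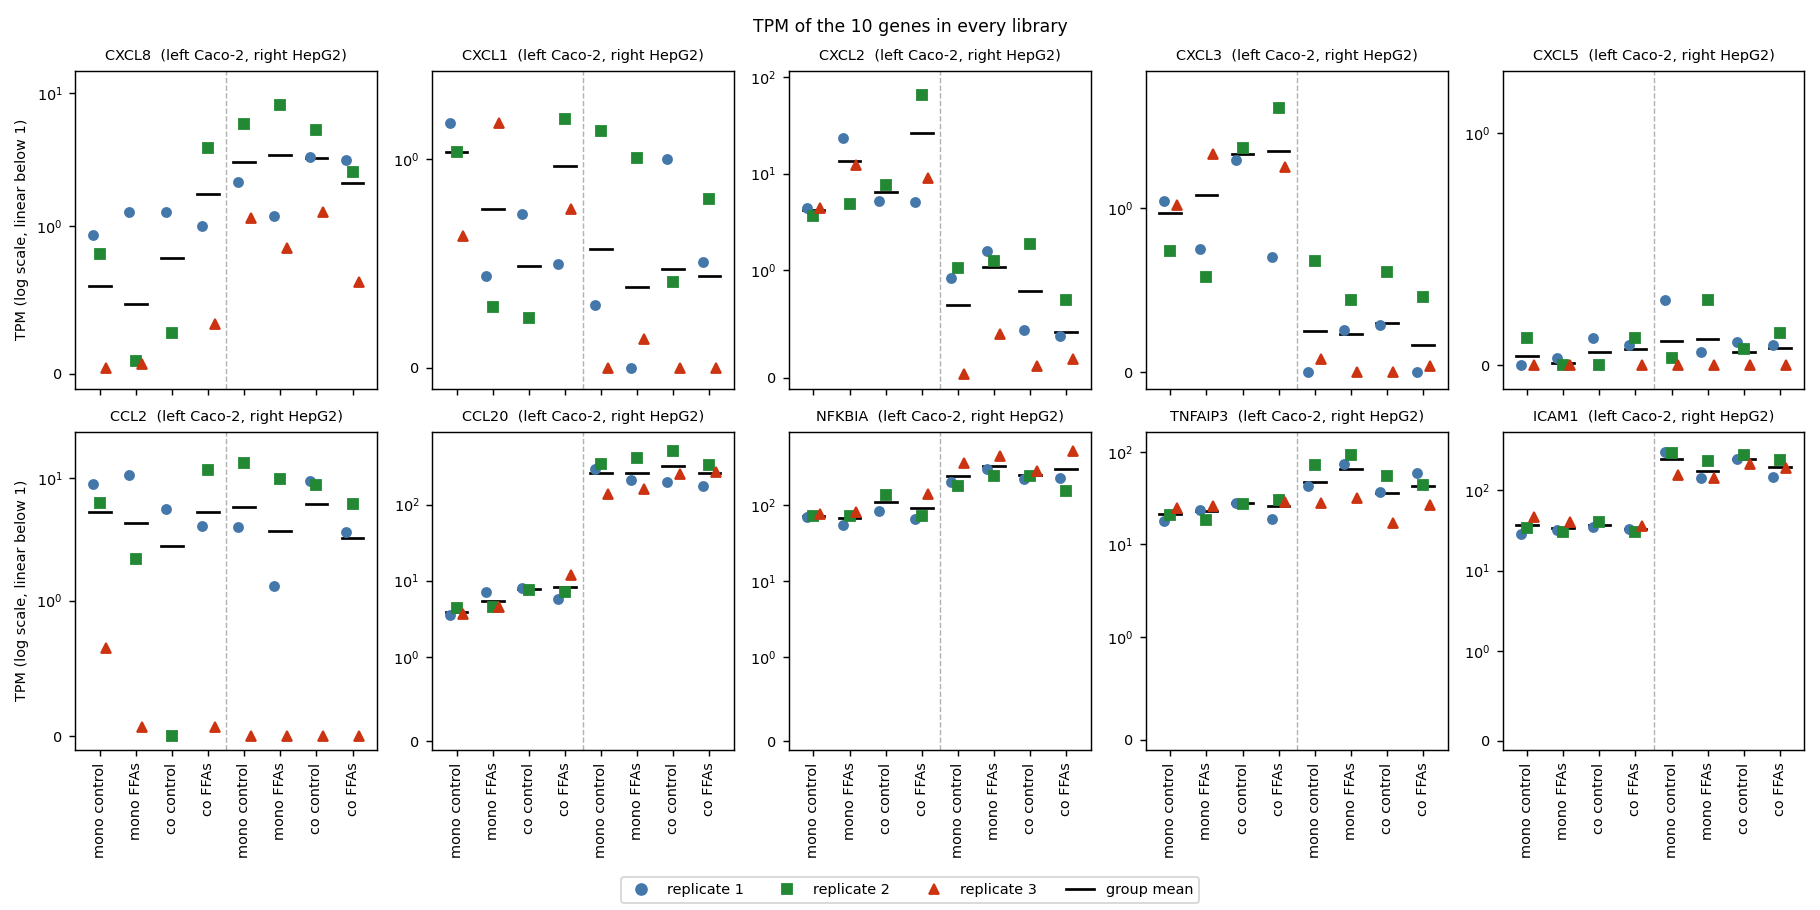
TPM (log scale, linear below 1) of each of the 10 genes in the 23 libraries, with the 4 groups of Caco-2 cells left of the dashed line and those of HepG2 cells right of it. Symbols mark the replicate number and bars the group mean. CCL20 and ICAM1 in HepG2 cells lay above every Caco-2 library, and CCL2 was listed at 0 in the 4 HepG2 libraries of replicate 3.

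CXCL8, the main neutrophil attractant, was low throughout. In Caco-2 cells it was at 0.94, 0.81 and 0.04 TPM in mono-cultured control replicates 1 to 3, at 1.27, 0.09 and 0.07 TPM with FFAs, at 1.29 and 0.28 TPM in co-cultured control replicates and at 1.00, 3.88 and 0.34 TPM in co-culture with FFAs. In HepG2 cells the values were 2.17, 5.89 and 1.16 TPM in mono-cultured control, 1.19, 8.25 and 0.85 TPM in mono-culture with FFAs, 3.31, 5.28 and 1.29 TPM in co-cultured control, and 3.15, 2.57 and 0.62 TPM in co-culture with FFAs. All 4 groups of a line overlapped, and the lowest value of each HepG2 group was replicate 3.

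CXCL2, another neutrophil attractant acting through CXCR2, was the highest of the CXCL genes in Caco-2 cells. It stood at 4.39, 3.68 and 4.44 TPM in mono-cultured control and at 23.6, 4.91 and 12.3 TPM in mono-culture with FFAs. In co-cultured Caco-2 cells it was at 5.26 and 7.70 TPM in control and at 5.10, 64.5 and 8.93 TPM with FFAs, the second of these being the highest CXCL2 value of the series. In HepG2 cells CXCL2 ranged from 0.04 to 1.87 TPM.

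CXCL1 and CXCL3 belong to the same family and are ligands of CXCR2 as well. In Caco-2 cells CXCL1 was at 1.57, 1.09 and 0.63 TPM in mono-cultured control, 0.44, 0.29 and 1.56 TPM with FFAs, 0.74 and 0.24 TPM in co-cultured control, and 0.50, 1.65 and 0.76 TPM in co-culture with FFAs, so that the groups overlapped. CXCL3 was at 1.11, 0.74 and 1.05 TPM in mono-cultured control, 0.75, 0.58 and 2.32 TPM with FFAs, 2.1 and 2.53 TPM in co-cultured control, and 0.70, 4.72 and 1.90 TPM in co-culture with FFAs. In HepG2 cells CXCL1 reached at most 1.41 TPM and CXCL3 at most 0.68 TPM, and each was listed at 0 in 4 of the 12 libraries. Neither passed the filter on low values in that line.

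CXCL5 reached at most 0.12 TPM in Caco-2 cells and 0.28 TPM in HepG2 cells, so it passed the filter in neither line although its promoter holds the same 11 bases as those of CXCL1 to CXCL3. Transcripts of these paralogs share stretches, 139 of the 1444 words of 50 bases of CXCL2 (9.63%) being found in CXCL3 and 60 (4.16%) in CXCL1, so how reads were split between them is uncertain, mostly for the lowest values.

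CCL2, the monocyte attractant MCP-1, had the largest SD of log2(TPM + 1) within a group of the 10 genes in each line, 1.93 for Caco-2 and 1.94 for HepG2. In Caco-2 cells it was at 9.07, 6.35 and 0.65 TPM in mono-cultured control, 10.6, 2.18 and 0.07 TPM with FFAs, 5.65 and 0 TPM in co-cultured control, and 4.11, 11.7 and 0.07 TPM in co-culture with FFAs. In HepG2 cells replicates 1 and 2 were at 4.01 and 13.4 TPM in mono-cultured control, 1.31 and 9.85 TPM with FFAs, 9.57 and 8.80 TPM in co-cultured control, and 3.67 and 6.18 TPM in co-culture with FFAs, and replicate 3 was listed at 0 in each of the 4 groups. The split by replicate number is taken up after the comparisons.

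CCL20, the ligand of CCR6 that attracts dendritic cells and T cells to mucosa, differed most between the lines. In Caco-2 cells it was at 3.58, 4.41 and 3.69 TPM in mono-cultured control, 7.08, 4.52 and 4.49 TPM with FFAs, 7.91 and 7.57 TPM in co-cultured control, and 5.66, 7.11 and 11.95 TPM in co-culture with FFAs. In HepG2 cells it was at 295, 345 and 137 TPM in mono-cultured control, 209.6, 407 and 161 TPM with FFAs, 198, 502 and 256 TPM in co-cultured control, and 175, 327 and 270.1 TPM in co-culture with FFAs. The lowest HepG2 library, at 137 TPM, lay far above the highest Caco-2 library, at 11.95 TPM.

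NFKBIA was at 69.7, 71.6 and 77.7 TPM in mono-cultured control Caco-2 cells, 54.6, 71.8 and 81.4 TPM with FFAs, 84.8 and 136 TPM in co-cultured control, and 67.3, 72.2 and 141 TPM in co-culture with FFAs. In HepG2 cells it was at 207, 179.5 and 359 TPM in mono-cultured control, 299, 245 and 448 TPM with FFAs, 222, 247 and 285 TPM in co-cultured control, and 228, 157 and 521 TPM in co-culture with FFAs. Replicate 3 had the highest NFKBIA of each HepG2 group, where it had the lowest CXCL8, CCL2 and TNFAIP3.

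TNFAIP3 encodes A20, an enzyme that edits ubiquitin chains and shuts the pathway down. In Caco-2 cells it was at 17.9, 20.9 and 25.1 TPM in mono-cultured control, 23.9, 18.4 and 26.3 TPM with FFAs, 28.0 and 27.6 TPM in co-cultured control, and 19.0, 29.97 and 28.7 TPM in co-culture with FFAs. In HepG2 cells it was at 42.7, 71.96 and 28.0 TPM in mono-cultured control, 75.1, 92.0 and 31.7 TPM with FFAs, 36.7, 55.3 and 16.9 TPM in co-cultured control, and 58.97, 43.5 and 26.8 TPM in co-culture with FFAs. The groups of HepG2 cells overlapped throughout.

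ICAM1, the adhesion molecule that leukocytes bind through the integrin LFA-1, was at 28.2, 33.8 and 46.6 TPM in mono-cultured control Caco-2 cells, 31.7, 29.7 and 40.1 TPM with FFAs, 34.9 and 39.5 TPM in co-cultured control, and 32.8, 29.7 and 35.8 TPM in co-culture with FFAs. In HepG2 cells it was at 291, 284 and 153 TPM in mono-cultured control, 142, 229 and 139 TPM with FFAs, 240.002, 269.5 and 209.6 TPM in co-cultured control, and 144, 237 and 188 TPM in co-culture with FFAs. The ranges with and without FFAs overlapped in each culture.

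Ordered by group mean, the groups of CXCL8, CCL20, NFKBIA, TNFAIP3 and ICAM1 fell into the HepG2 groups above the Caco-2 groups, and those of CXCL2 and CXCL3 into the Caco-2 groups above the HepG2 groups. Neighbouring groups in that order overlapped in their libraries, except between the lines for CCL20, NFKBIA, ICAM1, CXCL2 and CXCL3, and except, within Caco-2 cells, for co-cultured against mono-cultured control in CXCL2, co-cultured control against mono-cultured FFAs in CCL20, and mono-cultured FFAs against mono-cultured control in CCL20.

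The lines were compared in mono-cultured control libraries (3 against 3), with limma on log2(TPM + 1) and Benjamini-Hochberg adjustment over 16495 genes. CCL20 was higher in HepG2 cells by 5.63 on the log2 scale (SE 0.38, limma adjusted p = 1.71e-10), ICAM1 by 2.68 (SE 0.24, adjusted p = 1.27e-08), NFKBIA by 1.69 (SE 0.36, adjusted p = 0.000492) and TNFAIP3 by 1.03 (SE 0.41, adjusted p = 0.036). CXCL2 was lower in HepG2 cells, at -1.68 on that scale (SE 0.63, by limma adjusted p = 0.0268). The log2 fold changes of CXCL8 (1.23, limma adjusted p = 0.0885), CXCL3 (-0.68, adjusted p = 0.0994), CXCL1 (-0.49, adjusted p = 0.26) and CCL2 (-0.25, adjusted p = 0.883) did not pass 0.05. Thus 5 of the 9 tested genes differed between the lines, where 62.4% of all tested genes did, so that a difference was no more frequent among them than among all genes. The median of all genes was -0.20 in this comparison and -0.0032 after quantile normalization, and the 10286 genes called were 3857 higher and 6429 lower in HepG2 cells, against 5002 higher and 5185 lower after quantile normalization. The directions of the 5 genes were the same under both, but quantile normalization ended the call of CXCL2 (-1.53, limma adjusted p = 0.0518) and added CXCL8 (1.38, limma adjusted p = 0.0497). The call of TNFAIP3 was lost without replicate 1 or 2 of either line, down to 0.69 without HepG2 replicate 2 (limma adjusted p from 0.065 to 0.189). That of CXCL2 was lost without Caco-2 replicate 1 or 3 or HepG2 replicate 3, at -1.37 without the last (limma adjusted p from 0.0616 to 0.106). Among the genes not called, CXCL8 stood at 0.76 and CXCL1 at -0.85 without HepG2 replicate 2, and CXCL1 at -0.22 without HepG2 replicate 3. With a pseudocount of 0.1 the low genes had larger differences, -2.95 for CXCL2, 2.34 for CXCL8, -1.53 for CXCL1 and -0.9997 for CCL2, and CXCL3 was called as well (-2.13, limma adjusted p = 0.047).

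**Figure D2:**
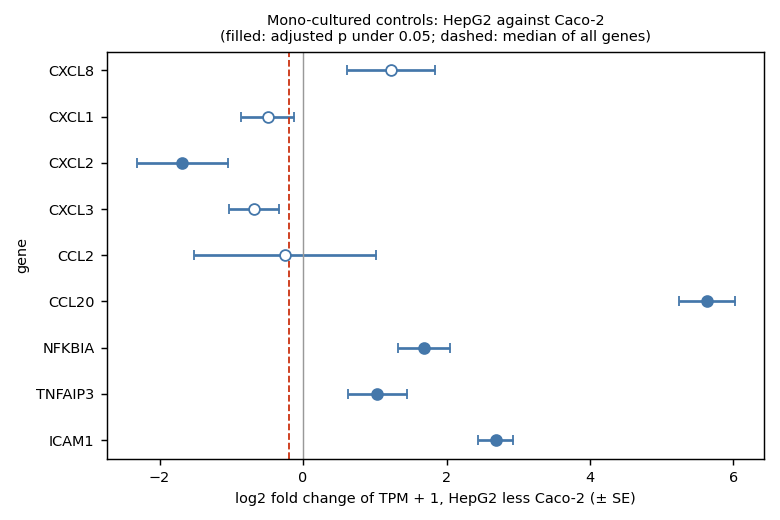
Log2 fold change of TPM + 1 in mono-cultured control cells, HepG2 less Caco-2 (x axis), for the 9 genes tested (y axis), with SE bars. Filled points had a limma adjusted p under 0.05 and the dashed line is the median of all 16495 genes, at -0.20. CCL20 (5.63) and ICAM1 (2.68) stood farthest to the right and CXCL2 (-1.68) to the left.

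The comparisons within a line ask whether the FFAs, or the other line, moved these genes. A gene was tested where some group of the line averaged 1 TPM or more, which left 15081 genes for Caco-2, 9 of the 10 among them, and 14255 for HepG2, with 7 of the 10. CXCL2 passed in HepG2 cells through the mono-cultured FFAs group alone, at a mean of 1.08 TPM. In Caco-2 cells CXCL8 passed through the co-cultured FFAs group alone, at a mean of 1.74 TPM. CXCL1 passed there through mono-cultured control alone, at a mean of 1.10 TPM. In none of the 7 contrasts of either line did any of the 10 genes reach a limma adjusted p under 0.05, and the count was also 0 with the replicate block, without each library in turn and under each other setting tried. At an unadjusted p under 0.05, 3 of the tested gene and contrast combinations in Caco-2 and 1 in HepG2 cells passed, as given with their contrast.

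With FFAs, none of the 9 tested genes was called in Caco-2 cells by limma's adjusted p. In mono-culture, 0 of 9 genes were called, against 0% of all tested genes, and 0 of 9 had an unadjusted p under 0.05, against 2.61%. CXCL2 and CCL20 were higher in each FFAs library than in each control library, 2 of 9 genes where 7.13% of all genes had libraries that did not overlap. The log2 fold change of CXCL2 was 1.27 (SE 0.73, limma unadjusted p = 0.109, adjusted p = 1), and without FFAs replicate 1 it was 0.78. That of CCL20 was 0.36 (SE 0.24, limma unadjusted p = 0.165, adjusted p = 1), and without the same library 0.17. The tested genes had a median log2 fold change of -0.08, and all genes 0.03.

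In co-cultured Caco-2 cells with FFAs, 0 of 9 genes were called, against 0.0199% of all genes, 0 of 9 had an unadjusted p under 0.05, against 2.83%, and 0 of 9 did not overlap, against 17.2%. The CXCL2 value of 64.5 TPM in replicate 2 stood far above the 5.10 and 8.93 TPM of the other libraries of its group. The log2 fold change of CXCL2 in this contrast was 1.10, but 0.08 without that library and 1.79 without FFAs replicate 1. Averaged over both cultures, 0 of 9 genes were called (0% of all genes) and 0 of 9 passed at an unadjusted p (3.99%). CXCL2 had the largest averaged difference, 1.19 (SE 0.55, limma unadjusted p = 0.0525, adjusted p = 0.99), and 0.67 without that replicate 2 library (limma adjusted p = 1). For the interaction of FFAs and culture, 0 of 9 genes were called (0%), and 0 of 9 passed at an unadjusted p (1.94%).

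In HepG2 cells none of the 7 tested genes was called with FFAs by limma's adjusted p either. In mono-culture 0 of 7 genes were called (0% of all genes), 0 of 7 passed at an unadjusted p (2.24%) and 0 of 7 did not overlap (6.47%). In co-culture the counts were 0 of 7 called (0%), 0 of 7 at an unadjusted p (1.84%) and 0 of 7 without overlap (5.42%). ICAM1 was lower with FFAs in both cultures, with log2 fold changes of -0.49 in mono-culture (SE 0.27, limma unadjusted p = 0.0945) and -0.36 in co-culture (SE 0.27, limma unadjusted p = 0.21). Averaged over both cultures the difference was -0.43 (SE 0.19, limma unadjusted p = 0.0466, adjusted p = 1), the single one of 7 genes with an unadjusted p under 0.05, against 3.49% of all genes, while 0 of 7 were called (0%). For the interaction, 0 of 7 were called (0%) and 0 of 7 passed at an unadjusted p (1.16%).

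Same-numbered HepG2 libraries deviated together in mono-culture, so the directions within the number are given too. With FFAs in mono-culture ICAM1 was lower in 3 of 3 pairs, and NFKBIA and TNFAIP3 were higher in 3 of 3. CXCL2 was higher in 3 of 3 as well, but it passed the filter through the mono-cultured FFAs group alone, which favors this direction. The share of all genes with the same direction in 3 of 3 pairs was not counted. With the replicate number as a block, the log2 fold change of ICAM1 was -0.49 (SE 0.19, limma unadjusted p = 0.0278, adjusted p = 0.85), that of TNFAIP3 0.44 (SE 0.20, limma unadjusted p = 0.0512, adjusted p = 0.85) and that of NFKBIA 0.43 (SE 0.20, limma unadjusted p = 0.0587, adjusted p = 0.85). In co-culture, where the numbers did not pair the libraries by the same check, ICAM1 and CXCL8 were lower in 3 of 3. NFKBIA and TNFAIP3 were higher there in 2 of 3. The blocked fit left all 7 genes without a call.

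**Figure D3:**
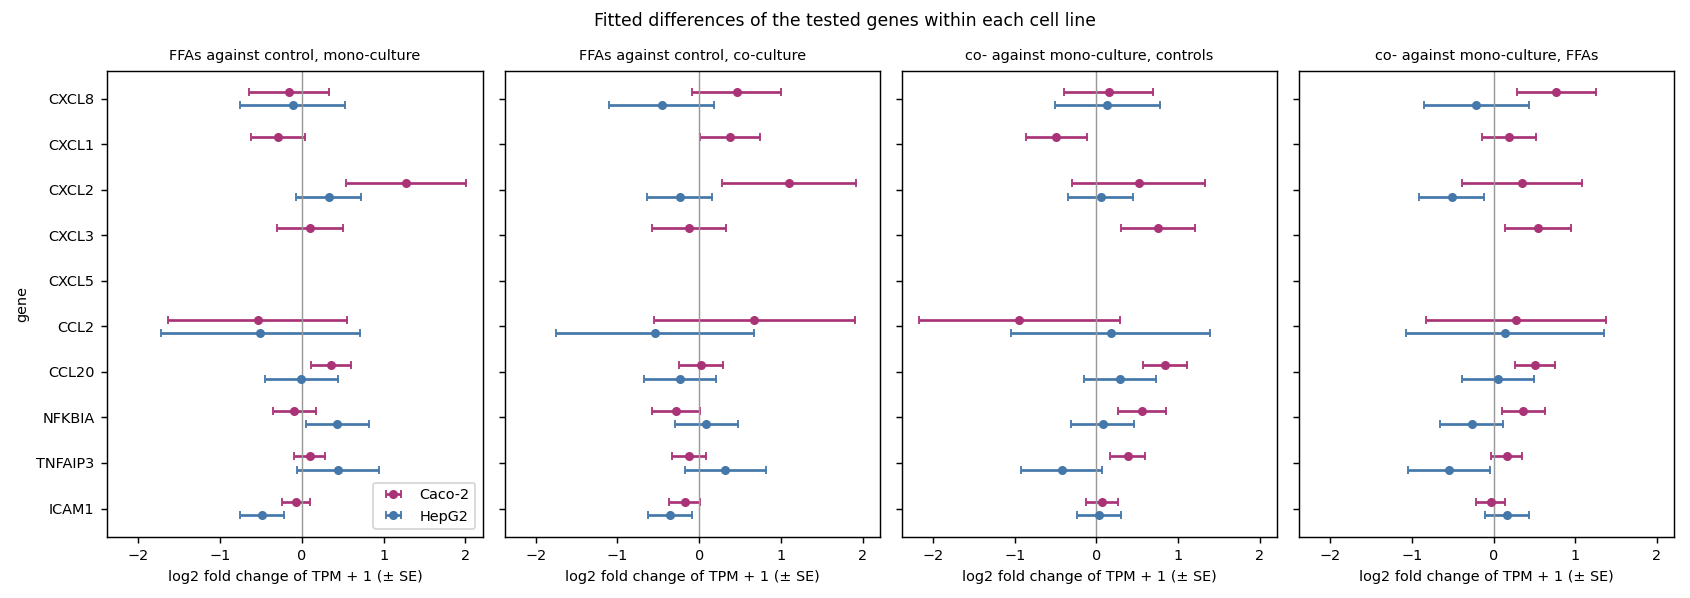
Fitted log2 fold change of TPM + 1 with SE bars (x axis) for each tested gene (y axis) in 4 contrasts, Caco-2 cells in purple and HepG2 cells in blue. CXCL2 in Caco-2 cells had the largest values with FFAs, 1.27 and 1.10, the second falling to 0.08 without co-cultured FFAs replicate 2, and CCL2 had the widest bars.

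With co-culture, 7 of 9 log2 fold changes in Caco-2 cells were above 0 in control and 8 of 9 with FFAs. The share of all genes above 0 was not counted, and these counts were not tested. The median of the 9 genes was 0.38 in control and 0.345 with FFAs, and that of all genes 0.04 and 0.008. CXCL8, at 0.77 with FFAs, passed the filter through co-cultured FFAs alone. In control, 5 of 9 genes, CXCL2, CXCL3, CCL20, NFKBIA and TNFAIP3, were higher in both co-cultured libraries than in the 3 mono-cultured ones, where 23.1% of all genes had libraries that did not overlap. CCL20 had a log2 fold change of 0.84 (SE 0.27, limma unadjusted p = 0.00963, adjusted p = 0.867). Those of CXCL3 (0.76, SE 0.45), NFKBIA (0.55, SE 0.29), CXCL2 (0.52, SE 0.82) and TNFAIP3 (0.38, SE 0.21) had limma unadjusted p-values of 0.122, 0.0858, 0.539 and 0.0971. Without co-cultured control replicate 2, NFKBIA was at 0.21 and CXCL2 at 0.28, and without replicate 1 of that group at 0.89 and 0.75. By the test, 0 of 9 genes were called, against 0.0199% of all genes, and 1 of 9 passed at an unadjusted p, against 5.43%.

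With FFAs, 0 of 9 genes in co-cultured against mono-cultured Caco-2 cells were called (0% of all genes), 0 of 9 passed at an unadjusted p (6.09%) and 0 of 9 did not overlap (9.32%). Averaged over both treatments, 0 of 9 were called (0%), CCL20 and NFKBIA passed at an unadjusted p, which makes 2 of 9 against 10.5% of all genes, and 0 of 9 did not overlap (1.38%). The averaged log2 fold change was 0.67 for CCL20 (SE 0.18, limma unadjusted p = 0.00329, adjusted p = 0.308) and 0.46 for NFKBIA (SE 0.20, limma unadjusted p = 0.0397, adjusted p = 0.451). NFKBIA was at 0.29 without co-cultured control replicate 2 and at 0.29 without co-cultured FFAs replicate 3. The median of the 9 genes was 0.43 and that of all genes 0.03.

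The level of HepG2 marker genes varied between the co-cultured Caco-2 libraries, from below the mono-cultured range to above it. The 34 marker genes had at least 50 TPM in each mono-cultured control HepG2 library and at most 1 TPM in each such Caco-2 library. This choice holds their level in mono-cultured control Caco-2 libraries low. In mono-culture the level in Caco-2 libraries was 0.109 to 0.174% of that in HepG2 cells in control and 0.121 to 0.20% with FFAs. In co-culture it was 0.899 and 0.0962% in control and 2.26, 0.264 and 0.114% with FFAs. In bulk samples, fewer cells of a type and less RNA per cell cannot be told apart. After the excess share of HepG2 expression was subtracted, an alternative chosen after the data had been seen, CCL20 in co-cultured Caco-2 cells was 5.82 and 7.57 TPM in control and 0, 6.76 and 11.95 TPM with FFAs, and its averaged log2 fold change was 0.11 (limma adjusted p = 0.959) in place of 0.67. That value rests on FFAs replicate 1, which the subtraction set to 0 TPM, and without this library the subtracted data gave 0.66 (limma adjusted p = 0.239). The subtraction gave NFKBIA 0.43 in place of 0.46. Co-cultured control replicate 2 and FFAs replicate 3 had marker levels within the mono-cultured range or below it. Their CCL20 was 7.57 and 11.95 TPM, above all 6 mono-cultured libraries. In the other co-cultured libraries, control replicate 1 and FFAs replicates 1 and 2, CCL20 was 7.91, 5.66 and 7.11 TPM. Whether HepG2 RNA had a part in the CCL20 difference was not tested.

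**Figure D4:**
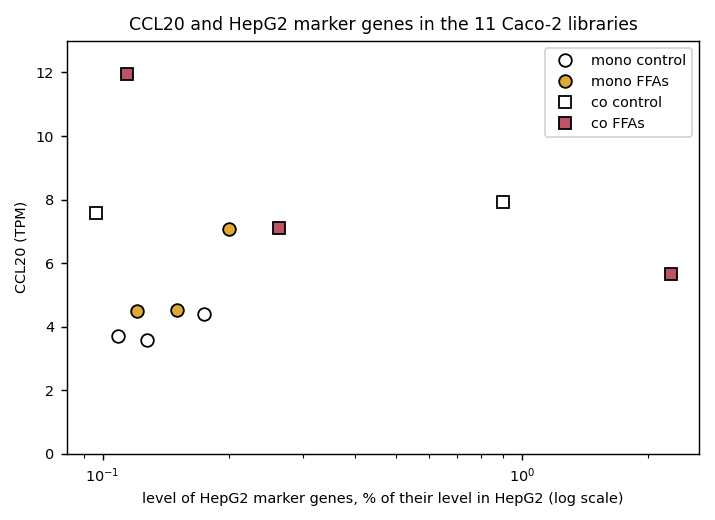
CCL20 in TPM (y axis) against the level of the 34 HepG2 marker genes as a percent of their level in HepG2 cells (x axis, log scale) in the 11 Caco-2 libraries. Circles are mono-cultured and squares co-cultured, open for control and filled for FFAs. The highest CCL20, 11.95 TPM, was in a co-cultured FFAs library with a marker level of 0.114%, and the library with the highest marker level, 2.26%, had 5.66 TPM.

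In HepG2 cells 6 of 7 log2 fold changes with co-culture were above 0 in control and 3 of 7 with FFAs, counts that were not tested. The median of the 7 genes was 0.08 in control and -0.21 with FFAs, and that of all genes -0.02 and -0.01. In control, 0 of 7 genes were called (0% of all genes), 0 of 7 passed at an unadjusted p (7.53%) and 0 of 7 did not overlap (14.9%). With FFAs the counts were 0 of 7 (0%), 0 of 7 (5.63%) and 0 of 7 (9.6%), and averaged over both treatments 0 of 7 (0.0561%), 0 of 7 (12.5%) and 0 of 7 (1.35%). TNFAIP3 had the smallest unadjusted p of the averaged contrast, with a log2 fold change of -0.49 (SE 0.35, limma unadjusted p = 0.191). It was lower in co-culture in 3 of 3 same-numbered pairs in control and in 3 of 3 with FFAs. With the replicate block its averaged difference was -0.49 (SE 0.14, limma unadjusted p = 0.00613, adjusted p = 0.0864). With FFAs, ICAM1 was higher in co-culture in 3 of 3 pairs. CXCL2 was lower in 3 of 3, but it passed the filter through the mono-cultured FFAs group alone, which favors this direction. The share of all genes with 3 of 3 was not counted. Tested as a difference between the lines, the FFAs and co-culture contrasts of the 9 genes tested in that fit gave no unadjusted p under 0.05. In the moderated F test over all groups of a line, 0 of 9 genes for Caco-2 (0.0133% of all genes) and 0 of 7 in HepG2 cells (0%) were called. CCL20 in Caco-2 cells came closest (limma adjusted p = 0.869).

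Several of these genes differed together by the replicate number of the labels in HepG2 cells. The contrast of replicate 3 against replicates 1 and 2 within groups was added after the CCL2 values had been seen. CCL2 is therefore described by its values alone. The genes called below in HepG2 cells varied with CCL2 or against it within groups. Their p-values and their count are thus not independent of that choice. In HepG2 cells TNFAIP3 was lower in replicate 3 by a log2 difference of -1.15 (SE 0.16, limma adjusted p = 0.000845), CXCL8 of -1.21 (SE 0.33, adjusted p = 0.0255) and CXCL2 of -0.75 (SE 0.21, adjusted p = 0.0249). NFKBIA was higher by 0.84 (SE 0.16, limma adjusted p = 0.00382). CCL20 (-0.55, SE 0.29) and ICAM1 (-0.38, SE 0.17) had limma adjusted p-values of 0.208 and 0.132. Replicate 3 was below both other libraries in all 4 groups for TNFAIP3 and CXCL8, and above both for NFKBIA. Leaving CCL2 aside, 4 of 6 genes were called, where 21.8% of all tested genes were. Those 3106 genes were 1262 higher and 1844 lower, and after quantile normalization 1625 of 3190 were higher. The call of CXCL8 was lost without replicate 3 of any of the 4 groups or replicate 2 of mono-cultured control (limma adjusted p from 0.0503 to 0.0927). That of CXCL2 was lost without replicate 3 of co-cultured control, mono-cultured control or mono-cultured FFAs (limma adjusted p from 0.0752 to 0.0833). ICAM1 was called without co-cultured FFAs replicate 1 (-0.48, limma adjusted p = 0.0331). What the number stands for is not given in the labels, and its part in the result was not tested.

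In Caco-2 cells the same contrast called 0 of 8 genes by limma, again without CCL2, where 2.13% of all genes were called, and 4 of 8 had an unadjusted p under 0.05 (CXCL8, NFKBIA, TNFAIP3 and ICAM1), against 18.8%. TNFAIP3 had a log2 difference of 0.31 (SE 0.14, limma adjusted p = 0.259), NFKBIA of 0.51 (SE 0.18, limma adjusted p = 0.155) and ICAM1 of 0.38 (SE 0.099, limma adjusted p = 0.0741). The all-gene count of 321 fell to between 1 and 8 without any single mono-cultured control library, co-cultured FFAs replicate 3 or mono-cultured FFAs replicate 3. The second co-cultured control library, labelled replicate 2, was at 0 TPM for CCL2 like the replicate 3 libraries at 0.07 to 0.65 TPM. Replicate 2 against replicate 1 called 0 of 9 genes in Caco-2 (0% of all genes) and 0 of 7 in HepG2 cells (0%). By limma's unadjusted p under 0.05, 1 of 9 genes, NFKBIA, passed in Caco-2 cells, against 6.96% of all genes, and 3 of 7, CCL2, CCL20 and ICAM1, in HepG2 cells, against 7.18%.

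**Figure D5:**
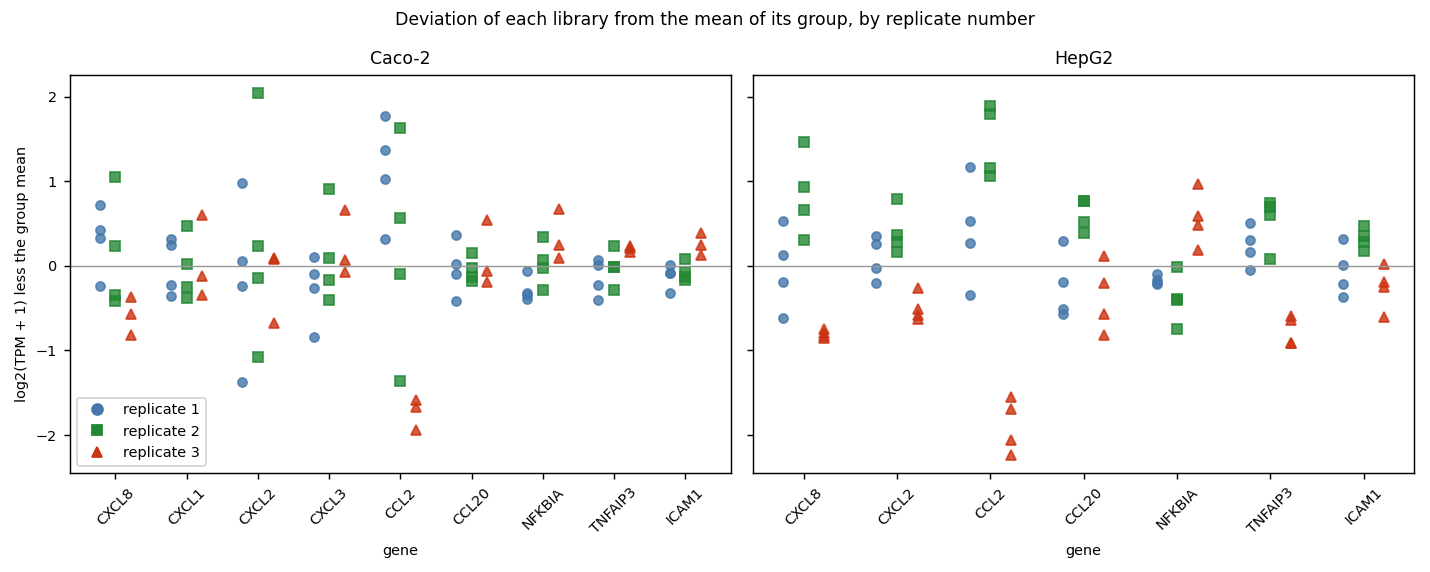
Log2(TPM + 1) of each library less the mean of its group (y axis) for the genes tested in each line (x axis), with replicate 1 as circles, replicate 2 as squares and replicate 3 as triangles. In HepG2 cells the 4 triangles lay below 0 for CXCL8, CXCL2, CCL2 and TNFAIP3 and above 0 for NFKBIA. In Caco-2 cells the 3 triangles lay lowest for CCL2.

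The rest of the pathway was followed in 95 further genes in 8 lists, of which 62 were tested in Caco-2 and 59 in HepG2 cells. By limma, 0 of them were called in any of the 7 contrasts of either line. At an unadjusted p under 0.05 in the averaged co-culture contrast, 5 were higher and 6 lower in Caco-2 and 6 higher and 3 lower in HepG2 cells, which makes 11 of 62 against 10.5% of all genes and 9 of 59 against 12.5%. The median log2 fold change of the 62 genes was 0.06 in Caco-2 cells, where all genes had 0.03, and that of the 59 genes was -0.03 in HepG2 cells, where all genes had -0.02.

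The subunits were present in both lines, RELA at 26.7 to 40.3 TPM in Caco-2 and 33.8 to 48.0 TPM in HepG2 cells, and NFKB1 at 33.7 to 41.97 TPM and 30.7 to 48.1 TPM. Among the other inhibitors, NFKBIZ, an atypical nuclear IkB protein, had the smallest unadjusted p of these lists in co-cultured Caco-2 cells, with an averaged log2 fold change of 0.86 (SE 0.17, limma unadjusted p = 0.000359, adjusted p = 0.249). Its values were 22.9 to 86.4 TPM over the line. NOS2, the inducible nitric oxide synthase and another target, had a log2 difference of 0.42 with FFAs over both cultures in Caco-2 cells (SE 0.10, limma unadjusted p = 0.00197, adjusted p = 0.99) and of -0.36 with co-culture over both treatments (SE 0.10, limma unadjusted p = 0.00476, adjusted p = 0.308). In HepG2 cells SOD2, the mitochondrial superoxide dismutase, had for the more abundant of its 2 gene IDs (389 to 705 TPM) -0.34 with FFAs over both cultures (SE 0.11, limma unadjusted p = 0.00758, adjusted p = 1), and CHUK, which encodes IkB kinase α, had 0.34 with co-culture (SE 0.09, limma unadjusted p = 0.00301, adjusted p = 0.176).

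Of the activating cytokines, TNF reached at most 0.18 TPM in Caco-2 cells and 0.36 TPM in HepG2 cells, and IL1B at most 1.93 and 0.24 TPM. IL18 was at 16.8 to 26.3 TPM in Caco-2 cells and 0.22 to 3.25 TPM in HepG2 cells. In HepG2 cells TNFSF14 reached 2.43 TPM and LTB 1.63 TPM. The receptors for TNF and IL-1 were present, TNFRSF1A at 51.1 to 65.4 TPM in Caco-2 cells and 41.9 to 94.2 TPM in HepG2 cells, and IL1R1 at 12.8 to 25.1 and 23.1 to 57.7 TPM. Of the receptors that the chemokines bind, CXCR1, CXCR2 and CCR2 reached at most 0.13 TPM in either line, whereas CCR6, the CCL20 receptor, was at 1.98 to 5.48 TPM in Caco-2 cells and 6.57 to 16.1 TPM in HepG2 cells. The target VCAM1 stayed at or below 0.90 TPM and IL6 at or below 0.30 TPM.

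Along the replicate number in HepG2 cells, 5 of the 59 further genes were higher and 14 lower in replicate 3 at a limma adjusted p under 0.05, 19 of 59 where 21.8% of all genes were called. Among the subunits NFKB2 had a log2 difference of -1.15 (SE 0.15, limma adjusted p = 0.000447) and RELB of -1.10 (SE 0.16, adjusted p = 0.000967), both of them NF-kB targets themselves. CD83 (-0.95), NFKBIZ (-0.93), IRF1 (-0.78), BIRC3 (-0.72), NFKBIE (-0.68), IL32 (-0.55) and TNIP1 (-0.45) were called lower as well, and so were CCR6 (-0.58), ITGAL (-0.54), TRAF2 (-0.41), TRAF3 (-0.34) and TRADD (-0.26). MAP3K8 (1.00), IL1R1 (0.58), PELI1 (0.58), CX3CL1 (0.48) and ITGB2 (0.40) were called higher. The median of the 59 genes was -0.12 and that of all genes -0.04. In Caco-2 cells TNFRSF1B (-0.94) was called lower and MAP3K8 (0.85) higher, 2 of 62 where 2.13% of all genes were called.

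Across libraries, after the group means were removed, CXCL8 and CCL2 moved together most closely in Caco-2 cells, with r = 0.92 and rho = 0.96 over 11 libraries. The permutation p for r was 7e-05, or 0.00252 after Benjamini-Hochberg adjustment over 36 pairs. For rho the permutation p was 1e-05, the smallest that 100000 permutations can give. Removing group means leaves fewer independent values than libraries, and the permutations ignored the groups. These p-values may therefore overstate the evidence. Without the 2 libraries farthest from the median of CXCL8, r was 0.92. Among the 36 pairs of Caco-2 genes 4 had r of at least 0.7, where 4.59% of all pairs of tested genes did. CXCL1 with CXCL3 (0.77), CXCL2 with CXCL3 (0.76) and CXCL3 with TNFAIP3 (0.73) were the others, and without the 2 farthest libraries they fell to 0.46, 0.26 and 0.49. NFKBIA ran against CCL2 (r = -0.86) and CXCL8 (r = -0.76), and ICAM1 against CCL2 (r = -0.78). Once the replicate number was also removed these were -0.60, -0.55 and -0.20, and in replicates 1 and 2 alone -0.87, -0.58 and -0.48.

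In HepG2 cells the libraries separated by replicate number, so no single correlation over all 12 is given. As a count over all of them, 8 of 21 pairs had r of at least 0.7 (6.07% of all pairs of genes), and 1 of 21 once the number was also removed. Within replicates 1 and 2, where each group gives 1 difference and the 8 libraries therefore 4 independent values, 4 of 21 pairs had r of at least 0.7, against 13% of all pairs, and in Caco-2 cells 13 of 36, against 10.7%. CXCL8 with CCL2 had r = 0.91 in HepG2 cells and 0.90 in Caco-2 cells in these libraries. Of the pairs that reached 0.7 in HepG2 cells, CCL20 with ICAM1 (r = 0.80) and CXCL8 with TNFAIP3 (r = 0.70) joined a chemokine to another kind of target.

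The genes most like CXCL8 over the 11 Caco-2 libraries, by Pearson r of log2(TPM + 1) with no group mean removed, were CDKN1B (0.95), RFX7 (0.93), SLC24A1 (0.92), GBP1 (0.92) and AC009779.2 (0.92). For NFKBIA they were MIR22HG (0.98), CSRNP1 (0.97), SERTAD1 (0.96), TNFRSF19 (0.96) and PPP1R15A (0.96) in Caco-2 cells. Each is the highest of many correlations over few libraries. For HepG2 cells the most alike genes are not given, since their libraries separated by replicate number.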

How the data were processed

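mRNA-seq of 23 libraries was used, grouped by the labels. The authors deposited TPM per gene and library: per the labels and the study's methods, reads on rRNA, tRNA and mitochondrial sequence were removed with Bowtie2 2.1.0, STAR 2.7.1a aligned what remained to GRCh38 (Ensembl 98), and TPM were estimated with RSEM 1.3.0. The labels give serum in the treatment medium where the study's methods give none. Groups were compared with limma 3.58.1 (eBayes with a trend) on log2(TPM + 1) in R 4.3.3, with the 4 groups of a line in 1 fit (all 8 groups for the lines) and Benjamini-Hochberg adjustment at 0.05 over the genes that averaged 1 TPM or more in some group. Of the methods, the limma fit alone was tested on simulated data, for FFAs in mono-culture. The simulated libraries varied independently, without the differences by replicate number seen in HepG2 cells. The study's test for the FFAs conditions, an analysis of variance for which it states no adjustment, was an alternative. It was run one-way with Benjamini-Hochberg adjustment and without the study's fold change cut-off. For mono- against co-culture the study also used DESeq2, which was not run here. Named genes were the 10 members, with fold changes where an unadjusted p was under 0.05 or libraries did not overlap, further pathway genes that were called or had the smallest p of a list, and the 5 genes most like CXCL8 and NFKBIA, given for Caco-2 cells alone. The values of ICAM1, TNFAIP3 and NFKBIA in HepG2 cells, TNFAIP3 in Caco-2 cells and CXCL2 with FFAs in co-culture and over both cultures beyond that rule were added after they were seen. The members and lists were chosen with earlier results of these data known. Same-numbered libraries were taken as pairs where every correlation of their deviations from the group means was above 0.1. This held in HepG2 cells for FFAs in mono-culture (0.175 to 0.502) and for co-culture in control (0.109 to 0.463) and with FFAs (0.308 to 0.601), and not in the other contrasts. TPM hold no counts, so depth is unknown and no counting interval is given. Figures and correlations used Python 3.11.15.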

Additional observations from a re-analysis of the deposited data

How the results depend on the processing

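The count of the 10 genes called within a line stayed at 0 in all 7 contrasts of both lines under each alternative run: a pseudocount of 0.1, median-of-ratios scaling, quantile normalization, other filters, no trend in limma, fits restricted to the compared groups, the replicate block (0 in each contrast), replicates 1 and 2 only, subtraction of the other line's share and each library left out. The one-way analysis of variance also called 0 after adjustment, and without adjustment CCL20 in Caco-2 cells alone of the 10 genes passed 0.05. Between the lines, 5 genes were called, 6 with the replicate block, 6 with a pseudocount of 0.1, and 3 to 4 with single libraries left out. CCL2, at -0.25 without a call, ran from -1.15 to 0.78 between the lines with single libraries left out, and was above 0 in 3 of those fits (0.26, 0.03 and 0.78). Pairs with r of at least 0.7 numbered 4 in Caco-2 and 8 in HepG2 cells, 9 and 1 with the replicate block removed, and 13 and 4 in replicates 1 and 2. For replicate 3 against replicates 1 and 2, with CCL2 left aside, the count of 4 in HepG2 cells was 2 with a mean of at least 5 TPM, a filter that leaves CXCL8 and CXCL2 untested, and 2 to 5 with single libraries left out. Where no cause is given, the cause was not tested. Depth is unknown, so the low TPM of CXCL1, CXCL3, CXCL5 and CXCL8 have no detection limit.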
